A study of Capra hircus with 12 samples.

Results

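Cholesterol synthesis and transport was followed through 33 genes chosen by name for their roles, with earlier results of these data known. They are 18 enzymes of the route from acetyl-CoA to cholesterol, 5 regulators of the SREBP transcription factors, 3 carriers that move sterol within the cell, 2 efflux transporters, 2 oxysterol enzymes and 3 nuclear receptors. Of the 28910 rows in the count tables, 30 carried the name of a member. IDI1, CYP51A1 and CYP7B1 were not found under those names and were not analysed here. In each layer, 29 members had at least 10 counts in at least 3 of the 6 libraries and were tested, 16 of them synthesis enzymes. The remaining member, the efflux transporter ABCG1, had between 0 and 10 counts per library and was too low to compare in either layer.

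The RNA came from cultured goat cells of the temporomandibular joint (TMJ), the hinge of the lower jaw. Cells of the superficial layer cartilage (SLC) and of the medial layer cartilage (MLC) were each given IL-1β, an inflammatory cytokine, or IL-1β + LOXL2, with 3 libraries per group and 12 in all. LOXL2 is a lysyl oxidase that crosslinks collagen, and it was delivered with an adenovirus before IL-1β. All 4 groups therefore carry IL-1β, and cells without it were not analysed here. An empty virus is named for the cells of another assay, flow cytometry. Whether the sequenced IL-1β cultures received it is not stated, so in these libraries LOXL2 and the virus cannot be told apart. The cells were taken from joints of slaughtered goats, released by collagenase and passaged in culture. No source says whether replicates were separate animals or cultures, so the p-values below measure only the spread between these libraries.

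Cells make cholesterol from acetyl-CoA through mevalonate, isoprenoids and squalene. When sterol in the endoplasmic reticulum runs low, SCAP carries the SREBP factors to the Golgi for cleavage and they switch on the genes of this route, whereas INSIG proteins hold SCAP back when sterol is plentiful. The liver X receptors sense oxysterols and switch on efflux transporters such as ABCA1, which loads cholesterol onto apolipoproteins outside the cell. In cartilage this system is known from osteoarthritis, where CH25H and the receptor RORA belong to an oxysterol axis linked to matrix-degrading enzymes. Levels are given below as CPM, read counts scaled to a common library size with TMM factors over all 12 libraries. Each fold change is given as a log2 fold change from edgeR. Its standard error (SE) was derived from the edgeR test, as the absolute log2 fold change over the square root of the F statistic.

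Library totals ran from 14158607 to 28931652 counts. The LOXL2 transcript was no higher in either group given LOXL2. In SLC it was at 625 ± 10.2 CPM with IL-1β and 520 ± 53.7 CPM with IL-1β + LOXL2 (SD, n = 3 each), a log2 fold change of -0.27 (SE 0.11, adjusted p = 0.106, adjusted by Benjamini-Hochberg). In MLC it was at 818 ± 52.6 and 785 ± 36.1 CPM (SD, n = 3 each), a log2 fold change of -0.065 (SE 0.086, adjusted p = 0.602). Both values turned positive, to 0.14 and 0.21, once each library's trend of log2 CPM on gene span was removed. Whether the delivered sequence could add reads to this gene is not stated. The gene therefore gives no check of the treatment, and "with LOXL2" below means the libraries labelled IL-1β + LOXL2. Of the chondrocyte markers, COL2A1 and COL9A1 were at or near 0 in SLC, where ACAN lay between 29.3 and 54.4 CPM, COMP between 59.4 and 95.9 and SOX9 between 13.8 and 22.2. In MLC COL2A1 lay between 10.4 and 20.8 CPM. The blood cell list, with 9 of 10 markers in the tables, summed to 56.7 to 141 CPM over the groups, most of it CD14 (47.2 to 132 CPM), with PTPRC and TYROBP at or near 0. The endothelial list, with all 10 in the tables, summed to at most 65.7 CPM, most of it ERG (32.5 to 60.8 CPM), with CDH5 and EMCN at or near 0.

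The IL-1β + LOXL2 libraries were uneven. In SLC the first of them differed from the second by a chi-square of 169 per degree of freedom, and no pair of IL-1β libraries went above 9.93. Among the 17 members with an unadjusted p under 0.05 in SLC, the first IL-1β + LOXL2 library was nearest to the IL-1β mean in 14. Its median shift in the direction of change was 0.37 log2 units, against 0.89 and 0.72 in the others. In MLC the first library was nearest in 12 of 15 members, with 0.25 against 0.49 and 0.60. SLC values are therefore also given without the first SLC IL-1β + LOXL2 library for the members described at length. That library was picked from these same values as the nearest to IL-1β, so fits without it favour smaller p. They show how the values depend on it and are not support for a change. In edgeR 62.3% of all genes passed without it, and leaving out any other SLC library gave no member past an adjusted p under 0.05.

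**Figure D1:**
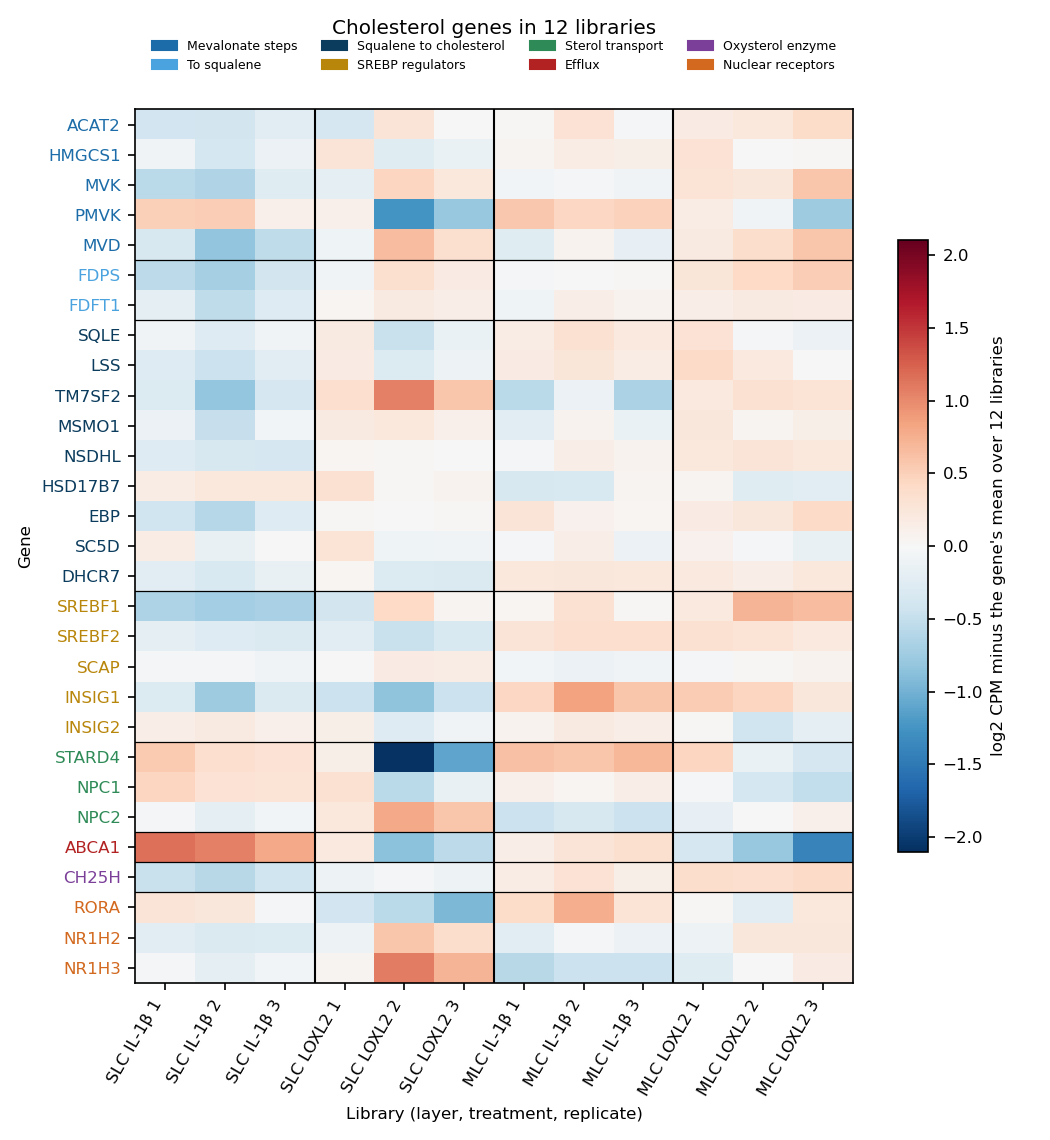
Level of the 29 tested genes (rows, name coloured by role) in the 12 libraries (columns), as log2 CPM minus the gene's own mean over all libraries, with red above and blue below it. ABCA1 and STARD4 were above their mean in the IL-1β libraries and below it in replicates 2 and 3 of IL-1β + LOXL2 in both layers, with replicate 1 between them.

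In MLC with LOXL2, the exporter ABCA1 and the sterol carriers STARD4 and NPC1 fell, and 4 of the 16 tested synthesis enzymes rose. The enzyme PMVK fell, while the lysosomal carrier NPC2 and the liver X receptor NR1H3 rose. In all, 6 of 29 members rose (MVK, MVD, FDPS, TM7SF2, NPC2 and NR1H3), where 9.88% of the 13806 genes tested rose. Another 4 fell (PMVK, STARD4, NPC1 and ABCA1), where 11.7% of all genes fell. Calls are from the edgeR quasi-likelihood test at a Benjamini-Hochberg adjusted p under 0.05, adjusted over all genes. The MLC groups did not overlap for 9 members that were higher and 7 that were lower, against 21.4% and 19.6% of all genes. These calls depended on single libraries. None of the 29 members passed when the first IL-1β library, or the third, was left out, or without the second IL-1β + LOXL2 library, and 0% of all genes did. Without the third IL-1β + LOXL2 library 1 member passed, against 3.47% of all genes, and without the second IL-1β library 4 did, against 6.21%. Without the first IL-1β + LOXL2 library 15 passed, against 48.1% of all genes. In a fit on all 12 libraries none passed (0% of all genes), with 10 at an unadjusted p under 0.05, against 25.8% of all genes.

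In SLC, none of the 29 members reached an adjusted p under 0.05 (0% of the 14164 genes tested did), the lowest value being 0.0706. Before adjustment, 13 members were higher and 4 lower with LOXL2 at p under 0.05, against 23% and 20.2% of all genes. With DESeq2's Wald test 12 members were higher and 4 lower at an adjusted p under 0.05, against 15.4% and 13.8% of all genes. Without the first IL-1β + LOXL2 library edgeR gave 14 higher and 6 lower, against 31.3% and 31% of all genes. A fit on all 12 libraries gave 13 higher and 4 lower, against 22.5% and 18.7%. The groups did not overlap for 14 members that were higher and 3 that were lower, against 24.6% and 24.2% of all genes. Groups that do not overlap have a two-sided exact permutation p of 0.1, the smallest that 3 against 3 libraries allow.

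**Figure D2:**
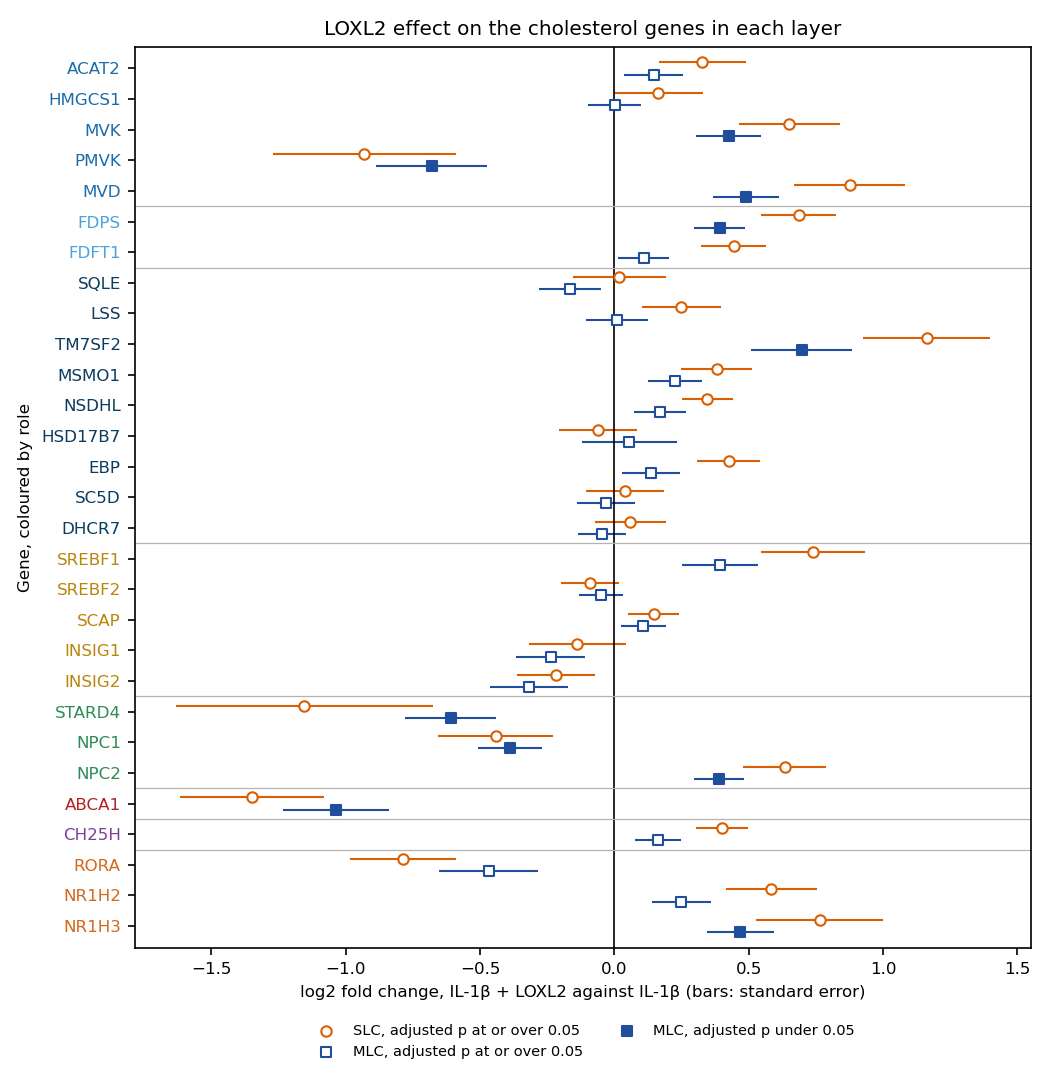
Log2 fold change of IL-1β + LOXL2 against IL-1β for each gene in SLC (circles) and MLC (squares), with bars for the standard error. Filled symbols passed an adjusted p of 0.05, which 10 genes did in MLC and none in SLC, and the MLC value was nearer to 0 than the SLC value for 26 of the 29.

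The mevalonate enzymes did not move as one. MVD (chromosome 18 of goat assembly ARS1.2, 15295908 to 15302596), which decarboxylates mevalonate diphosphate to the first isoprenoid, was at 46.0, 32.5 and 40.1 CPM in the SLC IL-1β libraries and at 54.5, 90.9 and 72.8 with LOXL2. The MLC libraries held 48.3, 61.2 and 51.6 CPM with IL-1β and 66.2, 74.6 and 86.4 with LOXL2. Every IL-1β + LOXL2 library was above every IL-1β library in both layers, and MVD rose in MLC (log2 fold change 0.49, SE 0.12, adjusted p = 0.0232). Its SLC value was larger, 0.88 (SE 0.21, adjusted p = 0.0706), or 1.04 without the first IL-1β + LOXL2 library (adjusted p = 9.57e-05).

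MVK (chromosome 17, 7494745 to 7513403), the kinase that adds the first phosphate to mevalonate, was at 11.7, 11.2 and 14.4 CPM in SLC with IL-1β and at 15.2, 23.5 and 20.1 with LOXL2. Levels in MLC were 16.5, 17.1 and 16.5 CPM with IL-1β and 21.2, 20.5 and 25.8 with LOXL2. The groups were apart in both layers, and MVK rose in MLC by a log2 fold change of 0.43 (SE 0.12, adjusted p = 0.0318), beside 0.65 in SLC (SE 0.19, adjusted p = 0.0706). Leaving out the first SLC library with LOXL2 gave 0.80 (adjusted p = 0.000458).

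PMVK (chromosome 3, 104466966 to 104478957), the next kinase of the route, ran the other way. It was at 8.61, 8.67 and 6.50 CPM in SLC with IL-1β and at 6.53, 2.55 and 3.49 with LOXL2. In MLC the values were 9.01, 8.21 and 8.43 CPM and 6.72, 5.76 and 3.59. The SLC groups overlapped at their edge and the MLC groups did not. PMVK fell in MLC (log2 fold change -0.68, SE 0.21, adjusted p = 0.0380), and the SLC value was -0.93 (SE 0.34, adjusted p = 0.0865), or -1.41 without the first IL-1β + LOXL2 library (adjusted p = 0.000182). MVK and PMVK, which catalyse consecutive steps, thus had opposite signs in both layers.

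The 2 enzymes ahead of them had values closer to 0. HMGCS1, which makes HMG-CoA, had a log2 fold change of 0.16 (SE 0.17) in SLC and of 0.00023 in MLC (SE 0.099), and its SLC sign turned without the first IL-1β + LOXL2 library (-0.017). ACAT2, the thiolase of the first step, had 0.33 (SE 0.16) in SLC and 0.15 (SE 0.11) in MLC, and in SLC it passed without that library (0.47, adjusted p = 0.00228). ACAT2 overlaps TCP1 by 110 bases, and reads there may be shared.

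FDPS and FDFT1 carry isoprenoids to squalene. FDPS (chromosome 3, 104804880 to 104814193), which makes farnesyl diphosphate, the branch point to sterols, prenylated proteins and ubiquinone, was at 53.5, 48.4 and 60.3 CPM in SLC with IL-1β and at 74.4, 99.1 and 88.5 with LOXL2. In MLC it was at 76.9, 79.1 and 79.6 CPM and at 93.1, 105.0 and 112.1. No libraries of the groups overlapped in either layer, and FDPS rose in MLC by 0.39 on the log2 scale (SE 0.096, adjusted p = 0.0227), beside 0.69 in SLC (SE 0.14, adjusted p = 0.0706). FDFT1, squalene synthase, had 0.44 in SLC (SE 0.12, adjusted p = 0.0706) and 0.11 in MLC (SE 0.095). Without the first SLC library with LOXL2, the SLC values were 0.78 for FDPS (adjusted p = 1e-04) and 0.48 for FDFT1 (adjusted p = 0.00257).

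From squalene to cholesterol, 9 enzymes were tested, of which 1 rose and none fell in MLC, where 9.88% and 11.7% of all genes did. TM7SF2 (chromosome 29, 43743074 to 43747562), a sterol reductase, had the largest log2 fold change of the enzymes in both layers. Its levels were low, at 4.20, 2.94 and 4.02 CPM in SLC with IL-1β and 6.57, 10.7 and 7.70 with LOXL2. In MLC they were 3.45, 4.69 and 3.25 CPM and 5.95, 6.40 and 6.26. The groups were apart in both layers. TM7SF2 rose in MLC (0.70, SE 0.19, adjusted p = 0.0271), and in SLC the value was 1.16 (SE 0.24, adjusted p = 0.0706 with edgeR and 0.00177 with DESeq2), or 1.31 without the first IL-1β + LOXL2 library (adjusted p = 0.000256).

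NSDHL, MSMO1 and EBP, which remove methyl groups from the ring system or shift its double bond, had smaller values. NSDHL was at 28.2, 27.0 and 26.7 CPM in SLC with IL-1β and at 35.3, 34.7 and 34.4 with LOXL2, and its first IL-1β + LOXL2 library was as high as the others. Its log2 fold change in SLC was 0.35 (SE 0.096, adjusted p = 0.0706). EBP had 0.43 (SE 0.12) and MSMO1 0.38 (SE 0.13) in SLC, and in MLC the values of these genes lay between 0.14 and 0.22, none past the threshold. In SLC without the first IL-1β + LOXL2 library NSDHL (0.33), EBP (0.41) and MSMO1 (0.37) passed.

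The other squalene-to-cholesterol enzymes had values from -0.17 to 0.25, none past the threshold. SQLE, the epoxidase at the start of the section, had 0.018 (SE 0.17) in SLC and -0.17 (SE 0.12) in MLC. LSS, lanosterol synthase, had 0.25 (SE 0.15) and 0.0094 (SE 0.11). HSD17B7, a demethylation enzyme, SC5D, a desaturase, and DHCR7, the reductase of the last step, had values between -0.062 and 0.058 in both layers. The DHCR7 libraries, at 35.4, 33.3 and 37.1 CPM in SLC with IL-1β and 42.9, 34.1 and 33.5 with LOXL2, had the first LOXL2 library above all others and the remaining ones within the IL-1β range.

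Across the 16 enzymes, log2 fold changes had a median of 0.34 (SLC) and 0.12 (MLC), where the medians of all genes tested were 0.013 and 0.0081. The sign was positive for 14 of 16 in SLC and 12 of 16 in MLC. Their summed level in SLC was 606 ± 54.9 CPM with IL-1β and 770 ± 18.4 with LOXL2, and in MLC 771 ± 42.4 and 849 ± 19.9 (SD, n = 3). In bulk RNA, a change in the number of cells of a kind and a change in RNA per cell cannot be told apart. The adipocyte marker list moved the same way as a sum in SLC, and its MLC ranges overlapped. In SLC its summed level, over the 9 of 10 markers in the tables, lay between 28.5 and 29.5 CPM with IL-1β and between 32.3 and 46.7 with LOXL2. In MLC it lay between 21.6 and 29.5 CPM and between 28.3 and 34.5. Most of it was CIDEC and CIDEA, and the defining markers ADIPOQ and PPARG reached at most 1.09 CPM. The markers of this list did not move as one in SLC. CIDEC lay between 10.1 and 11.6 CPM with IL-1β and between 12.8 and 18.5 with LOXL2. PLIN1 lay between 2.18 and 2.96 CPM with IL-1β and between 1.29 and 2.19 with LOXL2. The fibroblast list, with all 10 markers in the tables, lay between 73108 and 74865 CPM in SLC with IL-1β and between 64008 and 73579 with LOXL2. In MLC it lay between 73859.5 and 75119.6 CPM and between 72836.7 and 78450.5. Most of it was COL1A1, COL1A2 and COL3A1. In SLC THY1 was higher with LOXL2 (532 to 627 CPM against 426 to 453) and PDGFRA was lower (432 to 728 against 863 to 940). The chondrocyte list moved from 139 to 141 CPM in SLC with IL-1β to 147 to 148 with LOXL2, and in MLC lay between 608 and 716 and between 621 and 679. Its main markers overlapped between the SLC groups and did not move as one. COMP lay between 59.4 and 64.3 CPM with IL-1β and between 59.4 and 95.9 with LOXL2. ACAN lay between 45.4 and 50.3 CPM and between 29.3 and 54.4, and SOX9 between 19.7 and 22.2 and between 13.8 and 21.9. The skeletal muscle list, most of it PAX7, lay between 15.5 and 17.6 CPM in SLC with IL-1β and between 11.5 and 13.3 with LOXL2. The part of these lists in the result was not tested.

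The SREBP regulators split by gene. SREBF1, whose products favour fatty acid genes, was at 19.3, 18.5 and 19.0 CPM in SLC with IL-1β and at 23.2, 40.2 and 31.6 with LOXL2. The MLC libraries held 31.2, 37.6 and 30.9 CPM with IL-1β and 34.8, 49.4 and 47.4 with LOXL2. The SLC groups were apart and the MLC groups overlapped, and neither test passed, with log2 fold changes of 0.74 (SE 0.19, adjusted p = 0.0706) and 0.39 (SE 0.14, adjusted p = 0.0609). SREBF1 spans the microRNA gene MIR33B and SREBF2 spans MIR33A.

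SREBF2, the main driver of cholesterol genes, did not follow SREBF1. It was at 233 ± 10.2 and 220 ± 18.2 CPM in SLC and 346 ± 11.4 and 336 ± 12.8 in MLC (SD, n = 3), and its groups overlapped in both layers. Its log2 fold changes were -0.091 (SE 0.11) and -0.050 (SE 0.082), and both turned positive, to 0.21 and 0.16, with the gene span trend removed. SCAP, the escort of the SREBP factors, had 0.15 (SE 0.095) and 0.11 (SE 0.085). The retention proteins INSIG1 and INSIG2 had negative values throughout, -0.14 (SE 0.18) and -0.22 (SE 0.15) in SLC and -0.24 (SE 0.13) and -0.32 (SE 0.15) in MLC. No regulator passed the threshold with edgeR in either layer, and SREBF1 passed with DESeq2 in both (adjusted p = 0.0111 in SLC and 0.0462 in MLC). Without the first SLC IL-1β + LOXL2 library SREBF1 (0.92) and INSIG2 (-0.33) passed.

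Sterol carriers went in both directions. STARD4 (chromosome 7, 48895 to 66037), a soluble carrier that delivers cholesterol between membranes, was at 27.3, 24.0 and 23.2 CPM in SLC with IL-1β and at 20.4, 4.46 and 8.74 with LOXL2. Levels in MLC were 28.8, 28.0 and 30.5 CPM with IL-1β and 25.6, 17.0 and 14.7 with LOXL2. The groups were apart in both layers, with the first IL-1β + LOXL2 library close to the IL-1β range and the others far below it. STARD4 fell in MLC (log2 fold change -0.61, SE 0.17, adjusted p = 0.0298). In SLC its value of -1.15 (SE 0.48, adjusted p = 0.108) became -1.94 without the first library (adjusted p = 4.78e-05). STARD4 overlaps LOC108636416 by 445 bases.

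NPC1 and NPC2 act together to bring cholesterol out of lysosomes, NPC2 in the lumen and NPC1 in the membrane, and in MLC they went opposite ways. NPC2 (chromosome 10, 17337867 to 17347457) was at 314, 278 and 304 CPM in SLC with IL-1β and at 369, 551 and 474 with LOXL2. In MLC it was at 233, 250 and 234 CPM and at 282, 318 and 342. The groups were apart in both layers, and NPC2 rose in MLC (0.39, SE 0.093, adjusted p = 0.0220), beside 0.63 in SLC (SE 0.15, adjusted p = 0.0706), or 0.77 without the first IL-1β + LOXL2 library (adjusted p = 8.11e-05). NPC1 (chromosome 24, 33374981 to 33418847) was at 71.1, 63.8 and 63.2 CPM in SLC with IL-1β and at 64.6, 35.1 and 46.6 with LOXL2. The MLC libraries held 55.7, 53.5 and 57.4 CPM with IL-1β and 50.7, 40.3 and 36.5 with LOXL2. It fell in MLC (-0.39, SE 0.12, adjusted p = 0.0396), and the call was lost with the gene span trend removed (-0.26, adjusted p = 0.0834). In SLC the groups overlapped (-0.44, SE 0.21, adjusted p = 0.150). There NPC1 had -0.71 without the first IL-1β + LOXL2 library (adjusted p = 0.000499) and -0.25 without the second (adjusted p = 0.296).

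ABCA1 (chromosome 8, 94415525 to 94547054) had the most negative log2 fold change of the tested members in both layers. It was at 72.8, 67.8 and 56.6 CPM in SLC with IL-1β and at 37.3, 18.0 and 22.3 with LOXL2. Levels in MLC were 35.7, 39.3 and 41.0 CPM with IL-1β and 25.6, 18.8 and 12.3 with LOXL2. Every IL-1β + LOXL2 library lay below every IL-1β library, the first ones least. ABCA1 fell by 1.04 on the log2 scale in MLC (SE 0.20, adjusted p = 0.0187), and no other member past the threshold changed by 1 log2 unit or more. In SLC the value was -1.35 (SE 0.27, adjusted p = 0.0706 with edgeR and 0.000342 with DESeq2), or -1.72 without the first IL-1β + LOXL2 library (adjusted p = 2.88e-05). With the span trend removed it was -0.78 in MLC (adjusted p = 0.0202) and -0.99 in SLC. ABCG1, the other exporter that liver X receptors switch on, had 10, 3 and 4 counts in SLC with IL-1β, 2, 6 and 0 with LOXL2, and 3 counts in 1 of the 6 MLC libraries, so no difference was detectable at this depth.

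Both liver X receptor genes had positive values while their target ABCA1 fell. NR1H3 (chromosome 15, 5849800 to 5856969) was at 29.9, 27.0 and 29.8 CPM in SLC with IL-1β and at 32.0, 65.0 and 50.8 with LOXL2. In MLC it was at 20.7, 22.5 and 22.7 CPM and at 25.9, 30.9 and 34.8. NR1H3 rose in MLC (0.47, SE 0.12, adjusted p = 0.0264), and the call was lost with the span trend removed (0.31, adjusted p = 0.0570). In SLC its value was 0.76 (SE 0.24, adjusted p = 0.0715). NR1H2, the more widely expressed receptor, had 0.58 (SE 0.17, adjusted p = 0.0706) in SLC and 0.25 (SE 0.11, adjusted p = 0.117) in MLC. Without the first SLC library with LOXL2, NR1H3 had 0.99 (adjusted p = 4.71e-05) and NR1H2 0.75 (adjusted p = 5.82e-05) in SLC.

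The 2 tested members of the oxysterol axis known from cartilage had opposite signs. CH25H, which hydroxylates cholesterol to an oxysterol, was at 168, 154 and 174 CPM in SLC with IL-1β and at 214, 227 and 216 with LOXL2. The MLC libraries held 260, 287 and 253 CPM with IL-1β and 298, 295 and 305 with LOXL2. The groups were apart in both layers, with log2 fold changes of 0.40 (SE 0.097, adjusted p = 0.0706) and 0.16 (SE 0.084, adjusted p = 0.172). With the span trend removed the values were 0.098 and -0.034, so the MLC sign turned. RORA, the receptor of the axis, was at 6.54, 6.40 and 5.26 CPM in SLC with IL-1β and 4.11, 3.65 and 2.81 with LOXL2. Levels in MLC were 7.04, 9.18 and 6.57 CPM with IL-1β and 5.53, 4.62 and 6.32 with LOXL2. Its log2 fold changes were -0.79 (SE 0.20, adjusted p = 0.0706) and -0.47 (SE 0.18, adjusted p = 0.0810). Removing the trend took them to -0.29 and -0.14. The SLC values without its first library with LOXL2 were 0.41 for CH25H (adjusted p = 0.00192) and -0.91 for RORA (adjusted p = 0.00206).

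**Figure D3:**
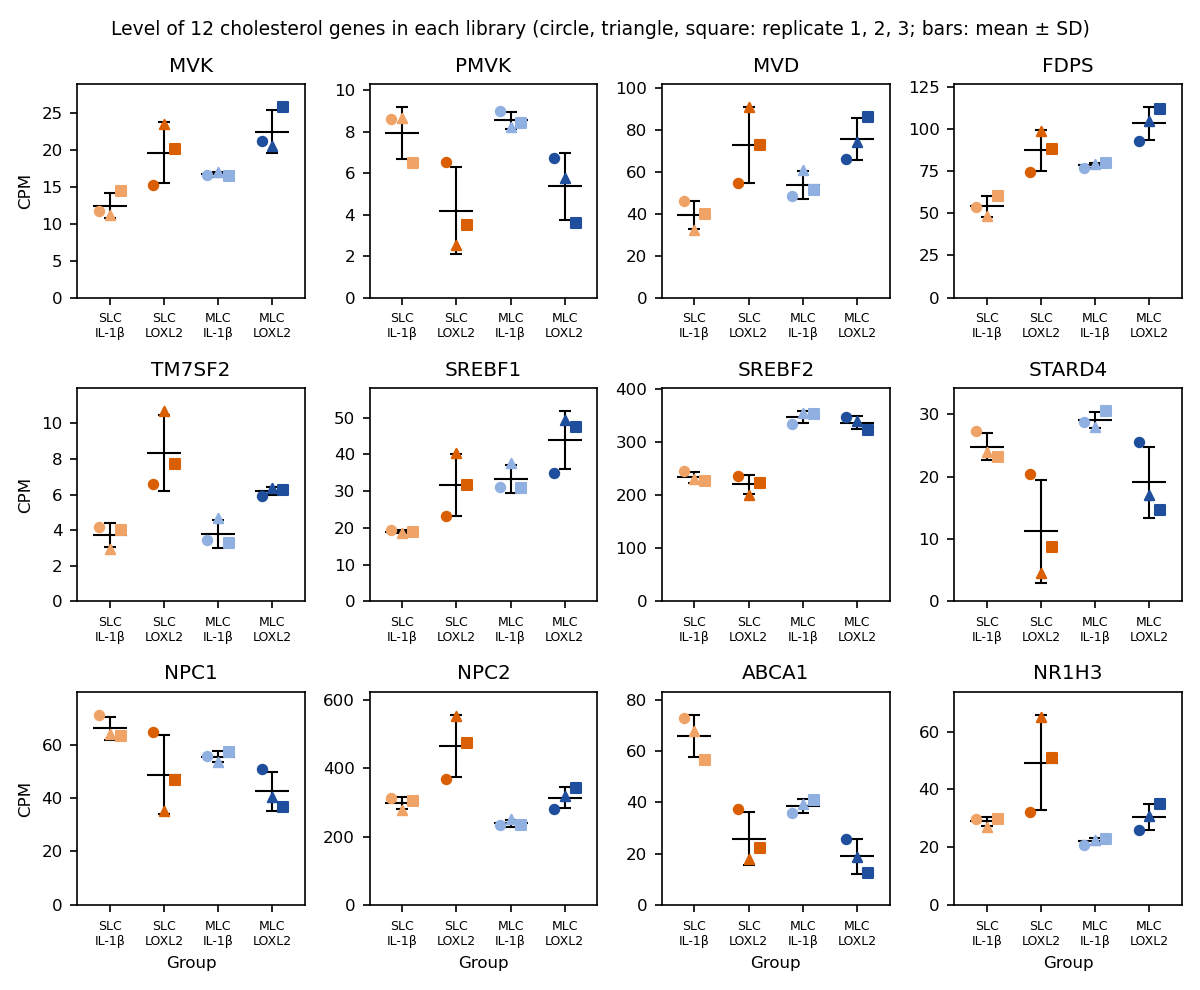
CPM of 12 genes in each library, on linear axes from 0, with the mean ± SD of each group as black bars and replicates 1, 2 and 3 as circles, triangles and squares. The first IL-1β + LOXL2 library of STARD4 (20.4 CPM in SLC, 25.6 in MLC) lay nearest to the IL-1β libraries, and ABCA1 was below all its IL-1β libraries in every IL-1β + LOXL2 library.

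Fold changes in both layers followed the genomic span of the gene, introns included. Over all genes tested with a known span, Spearman's rho between log2 fold change and span was -0.49 in SLC and -0.48 in MLC, and over the 29 members it was -0.63 and -0.60, given as a description. RORA, with 807273 bases, and ABCA1, with 131530, were the longest of the tested members and had negative values. CH25H, with 2177 bases, TM7SF2, with 4489, and EBP, with 3856, were the shortest and had positive ones. The members had a median span of 17044 bases, and all genes tested in SLC had 20753.5. PMVK (11992 bases) was shorter than the members' median and STARD4 (17143) close to it, and both had negative values, and SCAP (97516) was long and had a positive one.

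With the trend removed, the median of the 16 enzymes was 0.26 in SLC and 0.096 in MLC, where all genes had medians of 0.046 and 0.030. In MLC 5 members rose, against 7.88% of all genes, and 3 fell, against 6.78%. ABCA1 (-0.78), STARD4 (-0.64) and PMVK (-0.76) stayed lower, and MVK (0.41), MVD (0.33), FDPS (0.26) and NPC2 (0.26) stayed higher. TM7SF2 (0.52, adjusted p = 0.0723), NPC1 and NR1H3 no longer passed, and SCAP did, at 0.38 (adjusted p = 0.0269). In SLC none passed, as without the correction, with 14 members higher and 3 lower at an unadjusted p under 0.05, against 23.3% and 15.9% of all genes.

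**Figure D4:**
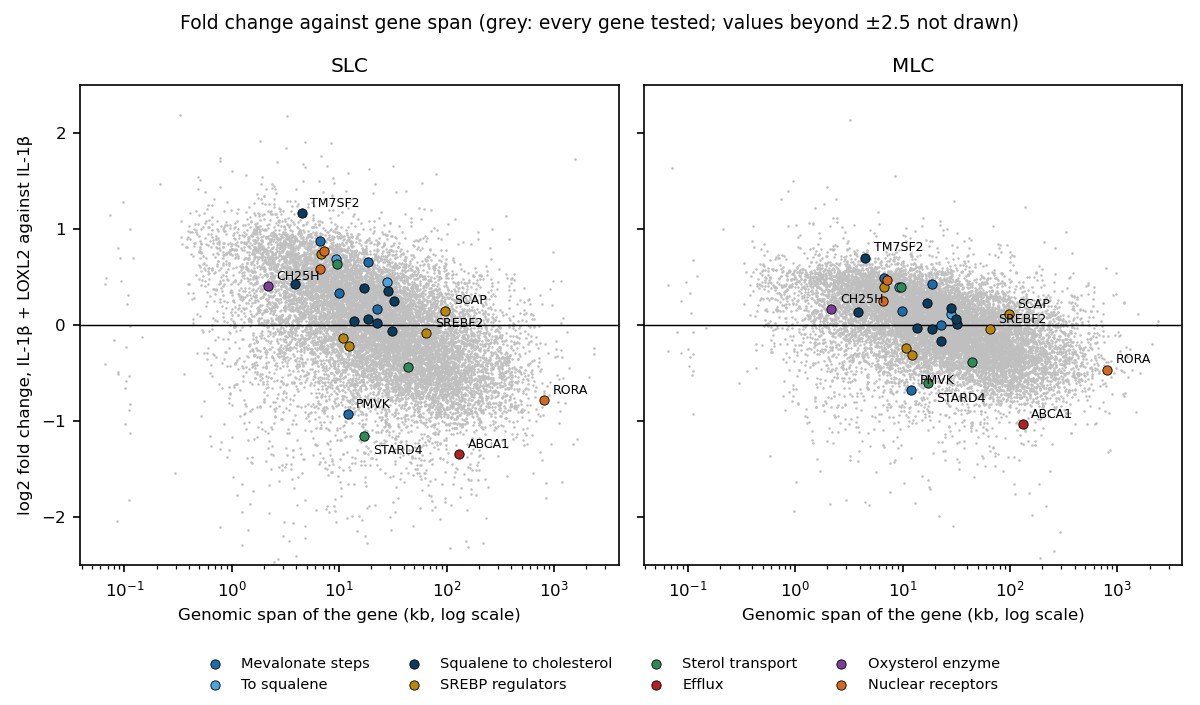
Log2 fold change of IL-1β + LOXL2 against IL-1β over genomic span in kilobases on a log axis, for every gene tested (grey) and the 29 members (coloured by role), in SLC (left) and MLC (right). The cloud fell with span (rho -0.49 and -0.48), and PMVK, STARD4 and ABCA1 lay in its lower part in both layers.

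The LOXL2 values of both layers come from separate libraries and could be set side by side. Whether cells of both layers came from the same joints is not stated, and both layers carried the span trend. Their agreement is therefore not taken as independent. The sign was the same in 25 of 29 members (86.2%), and in 87.6% of the 13524 genes tested in both layers. SQLE, HSD17B7, SC5D and DHCR7 were the members with opposite signs, and all lay close to 0 in SLC. Spearman's rho was 0.97 over the members and 0.87 over all genes. The MLC value was the smaller in size for 26 of 29 members and for 77.7% of all genes.

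No member responded to LOXL2 in a way that passed as different between layers. The interaction of layer and treatment in the 12 libraries gave 0 of 29 members at an adjusted p under 0.05 (0% of 14446 genes). At an unadjusted p under 0.05 there was 1 member, against 2.26% of all genes. It was FDFT1, whose LOXL2 effect in MLC minus that in SLC was -0.35 (SE 0.15, adjusted p = 0.958). With DESeq2 2 members were below that unadjusted p and none passed after adjustment. Without the first SLC IL-1β + LOXL2 library 14 members were below it, against 27.3% of all genes, with STARD4 (1.31, adjusted p = 0.0940) the largest difference. Among the members the SE of this difference reached 0.55, for STARD4.

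The layers differed in cholesterol genes without LOXL2. Under IL-1β alone, 17 of 29 members were higher in MLC, where 23.9% of 14446 genes were, and 5 were lower, where 22.3% were (edgeR, adjusted p under 0.05). Of the 16 enzymes 11 were higher and 1 lower, with a median log2 fold change of 0.40 where that of all genes was -0.0073. The groups did not overlap for 18 members that were higher in MLC and 5 that were lower, against 26.8% and 28.5% of all genes. Each library left out in turn gave 15 or 16 members higher and 3 to 5 lower, against 19.9% to 23.6% and 17.9% to 22.4% of all genes. The fit on all 12 libraries gave 11 higher and 0 lower, against 14.3% and 11.5% of all genes. A minimum absolute log2 fold change of 1 left 1 higher and 0 lower, against 6.82% and 4.61%.

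The 11 enzymes that were higher in MLC came from every section of the route and had log2 fold changes of 0.32 to 0.57. EBP (0.57, SE 0.093), FDPS (0.55, SE 0.077), LSS (0.53, SE 0.079), DHCR7 (0.48, SE 0.069), MVD (0.46, SE 0.11), ACAT2 (0.46, SE 0.088) and MVK (0.44, SE 0.11) led them. DHCR7 was at 48.5, 48.9 and 48.3 CPM in MLC and at 35.4, 33.3 and 37.1 in SLC, well apart. NSDHL (0.40), FDFT1 (0.39), SQLE (0.38) and HMGCS1 (0.32) passed too. PMVK (0.12), TM7SF2 (0.055), MSMO1 (0.14) and SC5D (0.0079) did not pass, and HSD17B7 was lower in MLC (-0.37, SE 0.14, adjusted p = 0.0452). HSD17B7 lost its call with DESeq2 (adjusted p = 0.0905).

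INSIG1, a target of the SREBP factors as well as their brake, had the largest layer difference of the members. It was at 27.8, 37.0 and 30.8 CPM in MLC and at 16.7, 12.2 and 16.6 in SLC (1.09, SE 0.13, adjusted p = 5.31e-06). SREBF1 (0.83, SE 0.090, adjusted p = 2.72e-06) and SREBF2 (0.59, SE 0.060, adjusted p = 1.61e-06) were higher in MLC as well. INSIG2 (0.0043) and SCAP (-0.033) had values close to 0. CH25H was higher in MLC (0.70, SE 0.068, adjusted p = 9.41e-07), as were STARD4 (0.25, SE 0.084, adjusted p = 0.0262) and NR1H2 (0.17, SE 0.066, adjusted p = 0.0416). The calls of STARD4 and NR1H2 were lost with DESeq2 (adjusted p = 0.0555 and 0.0645) and with the span trend removed (0.0958 and 0.198).

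The exporter ABCA1, both lysosomal carriers and the receptor NR1H3 were lower in MLC. ABCA1 was at 35.7, 39.3 and 41.0 CPM in MLC and at 72.8, 67.8 and 56.6 in SLC (-0.75, SE 0.091, adjusted p = 8.38e-06). NR1H3 (-0.38, SE 0.081), NPC2 (-0.30, SE 0.064) and NPC1 (-0.24, SE 0.068) were lower too, with adjusted p between 0.0013 and 0.0111. In the fit on all 12 libraries none of these passed, ABCA1 having -0.75 (adjusted p = 0.0542). RORA had 0.34 (SE 0.16, adjusted p = 0.0901). With the layer, the chondrocyte marker list moved as well. Over its 9 of 10 markers in the tables the summed level under IL-1β was 608 to 716 CPM in MLC and 139 to 141 in SLC, with ACAN at 349 to 435 CPM against 45.4 to 50.3, and MATN3 and CHAD at or under 2.28 CPM in both. The osteoblast list was higher in MLC as a sum, at 127 to 132 CPM against 52.4 to 55.4, but its markers did not move as one. Most of the MLC sum was SPP1, whose lowest level there was 97.3 CPM and whose highest in SLC was 14.4. RUNX2 was lower in MLC, at 20.5 to 27.2 CPM against 35.1 to 37.4. The skeletal muscle list was lower in MLC, at 0.92 to 1.37 CPM against 15.5 to 17.6. The part of these lists in the difference was not tested.

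In the libraries with LOXL2 fewer layer differences passed. Of the 29 members SREBF2 (0.62, adjusted p = 0.0112), INSIG1 (0.98, adjusted p = 0.00640) and CH25H (0.46, adjusted p = 0.0197) were higher in MLC, against 9.16% of all genes, and no member was lower, against 6.78% of all genes. The enzymes had log2 fold changes from -0.41 (TM7SF2) to 0.37 (DHCR7), none past the threshold. The change of the layer difference with LOXL2 is the interaction given above, in which no member passed.

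**Figure D5:**
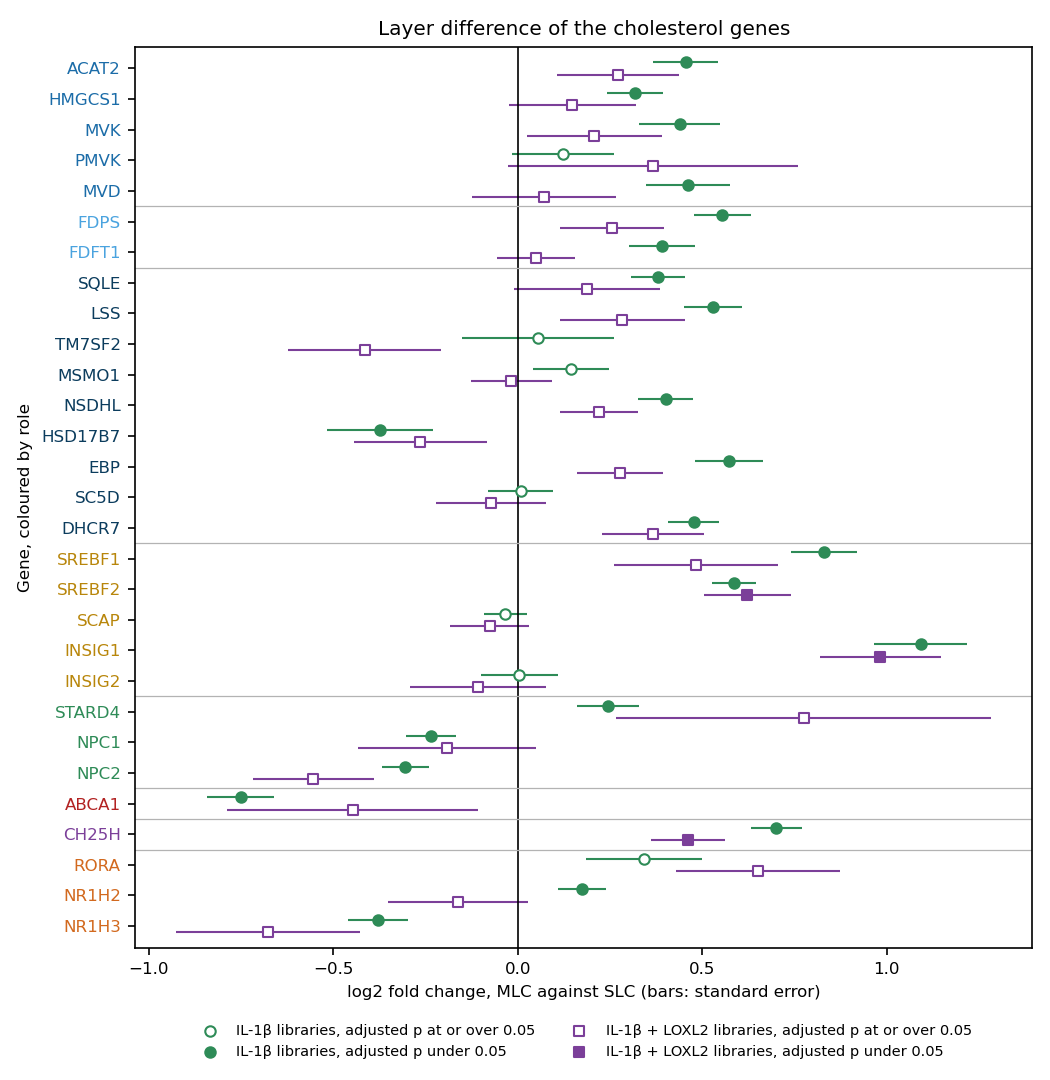
Log2 fold change of MLC against SLC for each gene in the IL-1β libraries (circles) and in the IL-1β + LOXL2 libraries (squares), with bars for the standard error and filled symbols for an adjusted p under 0.05. Under IL-1β 17 genes were higher and 5 lower in MLC, and in the IL-1β + LOXL2 libraries SREBF2, INSIG1 and CH25H were higher.

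Other genes that take up, store or sense sterol were read from a list of 32, of which 29 were tested. In MLC none rose with LOXL2 and 2 fell, where 9.88% and 11.7% of all genes did. LRP1, a large receptor that takes up lipoproteins among many ligands, was at 4563, 4113 and 4585 CPM with IL-1β and at 3514, 2828 and 2379 with LOXL2 (-0.61, SE 0.12, adjusted p = 0.0191). MBTPS2, a protease that frees the SREBP factors, was at 27.1, 27.4 and 24.2 CPM and at 22.0, 19.3 and 20.9 (-0.34, SE 0.11, adjusted p = 0.0436), and its call was lost with the span trend removed (-0.19, adjusted p = 0.215). In SLC no gene of the list passed, and LRP1 (-0.94, SE 0.22, adjusted p = 0.0706) and STARD5 (0.78, SE 0.26, adjusted p = 0.0773), a carrier related to STARD4, had the largest values. The median of the list was -0.18 in SLC and -0.064 in MLC, where that of the 16 enzymes was positive in both layers. The list had a median span of 36452 bases, against 17851.5 for the enzymes, and the part of span in these medians was not tested.

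Between layers under IL-1β, 6 of the 29 tested genes of that list were higher in MLC and 10 lower, where 23.9% and 22.3% of all genes were. SCARB1, a receptor that exchanges cholesterol with lipoproteins, was at 16.4, 13.9 and 16.6 CPM in MLC and 5.86, 6.63 and 6.74 in SLC (1.30, SE 0.12, adjusted p = 4.99e-07). MYLIP, a ubiquitin ligase that removes lipoprotein receptors, was lower in MLC (-1.07, SE 0.10, adjusted p = 7.97e-07). GRAMD1B, which carries cholesterol from the plasma membrane inward, was lower as well (-1.56, SE 0.32, adjusted p = 0.00107) at levels of at most 5.20 CPM.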

How the data were processed

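Bulk RNA-seq of 12 libraries of goat TMJ cells was read from 2 deposited tables, 1 per layer, which hold raw read counts per gene. Per the labels and the study's methods, the authors extracted total RNA, sequenced poly-T-selected transcripts, mapped reads to the goat genome ARS1.2 and counted them per gene. The submitters' processing notes name HISAT2 and featureCounts. Strand and multi-mapping settings are not given in the sources used here, so genes that overlap others are uncertain. Extraction is named as RNeasy in the labels and as TRIzol in the methods.

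From these counts, edgeR 4.0.16 (R 4.3.3) was used with TMM normalization and the quasi-likelihood test, two-sided, over genes with at least 10 counts in at least 3 of the 6 libraries of a layer, and p-values adjusted by Benjamini-Hochberg (threshold 0.05). The LOXL2 effect was fitted within each layer, the layer difference in the IL-1β libraries and the interaction in all 12. Counts covered 14158607 to 28931652 reads per library. Alternatives were DESeq2 1.42.0, other size factors, other count filters, a replicate block, each library left out, a fit on all 12 libraries, a minimum absolute log2 fold change of 1 and removal of a lowess trend (smoother span 0.3) of fold change on genomic span. Gene positions came from the RefSeq gene table of the same assembly. Scripts were tested on simulated counts.

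The members and the other gene lists were chosen with earlier results of these data known. Every member was named or counted. From the other lists, at most 3 genes past the threshold per comparison were named by size of fold change, or at most 2 where none passed. Replicate numbers were not taken as pairs in the main fits, and whether they mark pairs is not stated. Promoter, protein and genome sequences were not used here.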

Additional observations from a re-analysis of the deposited data

How the results depend on the processing

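Of 1552 single-gene values under an alternative, 1280 kept direction and side of the threshold, 78 passed newly, 147 no longer passed and 47 changed sign. In SLC, 0 members passed; DESeq2 gave 16, the fit on all 12 libraries 17, and leaving out each library 0 to 20. In MLC, 10 passed; a minimum absolute log2 fold change of 1 left 1, the fit on all 12 libraries 0, and leaving out each library 0 to 15. Of 22 layer calls under IL-1β, that minimum left 1 and the fit on all 12 libraries 11, all higher. The libraries labelled IL-1β + LOXL2, which are other samples and not another processing, gave 3. The interaction gave 0 under every alternative. The cause of these differences was not tested.

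With the span trend removed, the sign changed in SLC for HSD17B7 (0.030), SC5D (-0.043), SREBF2 (0.21) and LOXL2 (0.14), in MLC for EBP (-0.053), SREBF2 (0.16), CH25H (-0.034) and LOXL2 (0.21), and between layers for TM7SF2 (-0.027), SC5D (-0.069), SCAP (0.026) and INSIG2 (-0.072). In the libraries labelled IL-1β + LOXL2, again other samples, some layer differences had the opposite sign to that under IL-1β. These were TM7SF2 (-0.41), MSMO1 (-0.017), SC5D (-0.072), INSIG2 (-0.11) and NR1H2 (-0.16). With no filter the layer difference under IL-1β changed sign for SC5D (-0.0061) and INSIG2 (-0.0096). HMGCS1 in MLC turned to -0.0041 with DESeq2 size factors, -0.00056 with filterByExpr, -0.0020 with 10 counts in every library and -0.0040 with DESeq2. The replicate block gave 0 calls in SLC, 11 in MLC, 20 between layers and 0 in the interaction (0%, 29.4%, 40.8% and 0% of all genes), and turned SQLE in SLC to -0.0036 and HMGCS1 in MLC to -0.0054. Deviations of same-numbered libraries correlated from -0.29 to 0.22, so the numbers were not taken as pairs.

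With each library left out, log2 fold changes crossed 0 in SLC for HMGCS1 (-0.017 to 0.27), SQLE (-0.17 to 0.17), SC5D (-0.096 to 0.12) and DHCR7 (-0.071 to 0.12), and in MLC for HMGCS1 (-0.10 to 0.050), LSS (-0.094 to 0.11), HSD17B7 (-0.053 to 0.20) and SC5D (-0.099 to 0.044). Between layers they did for TM7SF2 (-0.13 to 0.16), SC5D (-0.070 to 0.088) and INSIG2 (-0.028 to 0.037). Counts of 49 to 75 in a library limited TM7SF2, RORA, PMVK and HSD17B7.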

Other observations

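Genes of fatty acid synthesis, which SREBF1 products are known to drive, were read from a list of 16. In MLC 14 were tested, of which none rose and 1 fell with LOXL2, where 9.88% and 11.7% of all genes did, and 13 had a negative log2 fold change, as 49.1% of all genes had. GPAM, which starts glycerolipid assembly, fell from 16.1, 14.4 and 14.7 CPM with IL-1β to 12.8, 8.03 and 9.58 with LOXL2 (-0.57, SE 0.16, adjusted p = 0.0312, edgeR), and its call was lost with the span trend removed (-0.36, adjusted p = 0.0953). The median of the list was -0.23, while SREBF1 itself had 0.39. In SLC all 16 were tested and none passed, with a median of -0.24. SCD, the desaturase that makes oleate, was at 12.5, 6.72 and 9.57 CPM with IL-1β and at 8.95, 1.55 and 2.85 with LOXL2 (-1.12, SE 0.59, adjusted p = 0.175), and GPAM had -0.62 (SE 0.20, adjusted p = 0.0738). The list had a median span of 65784 bases, against 17851.5 for the 16 sterol enzymes. Between layers under IL-1β, 6 of the 16 tested genes of the list were higher in MLC and 4 lower, where 23.9% and 22.3% of all genes were. FADS2, a desaturase of polyunsaturated fatty acids, was higher (1.05, SE 0.11, adjusted p = 2.73e-06), ELOVL5, an elongase of the same route, was lower (-0.89, SE 0.060, adjusted p = 1.82e-08), and ACACB, an acetyl-CoA carboxylase, was lower at levels of at most 0.89 CPM (-1.83, SE 0.47, adjusted p = 0.00507).

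Farnesyl diphosphate also feeds prenylation, ubiquinone and dolichol, and 14 of 16 listed genes of these branches were tested. CHML, a Rab escort protein, fell in MLC from 16.1, 11.5 and 14.8 CPM with IL-1β to 11.2, 5.19 and 2.40 with LOXL2 (-1.17, SE 0.37, adjusted p = 0.0411, and 0.149 with DESeq2), and it was the 1 gene of the list that passed there, where 11.7% of all genes fell. In SLC none passed, and CHML had -1.89 (SE 0.73, adjusted p = 0.0951) and RABGGTA, a subunit of the Rab prenyltransferase, 0.51 (SE 0.19, adjusted p = 0.0912). Under IL-1β, CHM (-0.60, SE 0.11, adjusted p = 0.000359) and PDSS2 (-0.38, SE 0.14, adjusted p = 0.0367, and 0.0639 with DESeq2), of Rab escort and ubiquinone tail synthesis, were lower in MLC, where 22.3% of all genes were. No gene of the sterol handling, fatty acid or prenylation lists passed in the interaction with edgeR, and none was under an unadjusted p of 0.05 there.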
